A study of Mus musculus with 6 samples.

Results

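The 10 genes described here encode peptide hormones and neuropeptides of the gut, the airway and their nerves: Sst, Calca, Calcb, Ghrl, Grp, Gast, Scg2, Cck, Npy and Nts. They were taken by name from the 23284 gene symbols of the count table, and all 10 had a row. RNA was measured by sequencing in esophageal epithelium isolated from mouse embryos at stage E12.5. The control group held 3 libraries from littermate controls, whose titles call them WT, and the p63KO group held 3 libraries from littermates homozygous for Trp63-CreERT2. In that allele a tamoxifen-dependent Cre recombinase is placed in the gene of p63, the transcription factor of stratified epithelia, and no tamoxifen treatment is given in the labels. The sources used here do not say how many embryos went into a library, and p-values therefore reflect only the spread between these libraries, which may be technical. The comparison asks which hormone genes appear when p63 is lost.

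Peptide hormones are made as long precursors, cut by convertases inside dense-core granules, and released when the cell is stimulated. In the gut they come from scattered enteroendocrine cells, each kind named after its main hormone, and in the airway from pulmonary neuroendocrine cells. Several of the same genes are also used by neurons, so a hormone transcript alone does not name a cell type.

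Libraries held between 13335328 and 20093838 counts. Trp63 was between 550.6 and 674.1 CPM (reads scaled to a common depth by the TMM method) in control and between 62.2 and 76.7 CPM in p63KO, so every library matched its label. The epithelial genes Epcam, Krt8 and Sox2 were abundant in all 6 libraries, with at least 5674 counts each. Control replicate 3 stood apart through genes of the gut behind the esophagus: Cdx2, an intestinal homeobox gene, had 919 counts there and 2 or fewer in each other library. Gata4, a factor of the glandular stomach and other endoderm, had 1187 counts there and 4 or fewer in each other library. For Sst, Scg2 and Ghrl, values are given with and without control replicate 3.

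The promoters of the 4 hormone genes with the most counts in p63KO relative to control are shown because these genes were high together in the same libraries. Sequences are from RefSeq on GRCm38.p6, each from 250 bases before to 50 bases after the start of the gene, on the strand of the gene. They are Sst at chr16:23890795-23891094 (minus strand), Scg2 at chr1:79439977-79440276 (minus), Calca at chr7:114636308-114636607 (minus) and Cck at chr9:121495645-121495944 (minus). Capitals mark the cAMP response element TGACGTCA, its core TGACG, and the E-boxes CAGATG and CAGCTG, searched on both strands; TGACG also lies inside TGACGTCA.
Sst: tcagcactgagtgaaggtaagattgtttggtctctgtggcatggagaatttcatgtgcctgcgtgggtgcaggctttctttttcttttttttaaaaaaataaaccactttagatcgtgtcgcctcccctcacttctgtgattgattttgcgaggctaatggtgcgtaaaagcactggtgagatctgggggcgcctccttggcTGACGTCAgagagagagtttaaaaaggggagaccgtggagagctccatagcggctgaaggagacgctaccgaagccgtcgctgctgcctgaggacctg
Scg2: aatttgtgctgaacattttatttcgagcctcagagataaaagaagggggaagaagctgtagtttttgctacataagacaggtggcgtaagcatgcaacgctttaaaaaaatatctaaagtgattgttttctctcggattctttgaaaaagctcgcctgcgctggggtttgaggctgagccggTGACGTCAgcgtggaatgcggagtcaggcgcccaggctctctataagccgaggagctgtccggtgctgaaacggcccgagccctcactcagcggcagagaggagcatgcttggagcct
Calca: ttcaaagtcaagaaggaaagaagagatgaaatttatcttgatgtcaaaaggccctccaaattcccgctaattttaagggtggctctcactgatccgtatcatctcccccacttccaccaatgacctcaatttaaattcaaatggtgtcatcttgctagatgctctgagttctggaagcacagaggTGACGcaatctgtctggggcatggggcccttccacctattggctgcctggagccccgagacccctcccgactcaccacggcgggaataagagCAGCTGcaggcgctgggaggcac
Cck: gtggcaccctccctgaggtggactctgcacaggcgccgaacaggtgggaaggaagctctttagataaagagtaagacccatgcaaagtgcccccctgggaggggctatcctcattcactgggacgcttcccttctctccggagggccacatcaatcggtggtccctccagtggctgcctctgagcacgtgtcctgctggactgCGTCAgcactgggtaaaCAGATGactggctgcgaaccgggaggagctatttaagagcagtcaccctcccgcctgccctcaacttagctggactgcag

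The cAMP response element is bound by CREB-family factors and is a textbook feature of the somatostatin promoter. Here TGACGTCA stood at -48 to -41 in Sst and at -68 to -61 in Scg2, counted from the first transcribed base as +1. Of 32851 RefSeq promoter windows of the same length, 1.79% held this motif. Calca held the core TGACG at -65 to -61, and Cck held it on the opposite strand at -47 to -43; 20.8% of all windows held the core. Among the other members searched, the core was found in Nts, at -166 to -162, and not in Ghrl, Gast or Npy. E-boxes are the sites of basic helix-loop-helix factors. CAGATG was found in Cck (-30 to -25) and in 2 overlapping windows of the 4 listed for Ghrl, against 17.2% of all windows. CAGCTG was found in Calca, Nts and 1 Ghrl window, against 16.3%. TATAAA, found in 13.6% of all windows, was in none of the printed promoters and lay on the opposite strand in Gast, at -28 to -23. These are letter matches, and binding was not measured.

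Cck, Calca and Sst rose in p63KO, and Scg2 had counts in p63KO libraries alone. Ghrl had counts in all 6 libraries, and Gast, Nts, Grp, Calcb and Npy stayed at 6 or fewer counts in each group. Of the 10 genes, 4 had enough counts to pass the filter on low values, and 3 of these were higher in p63KO in edgeR's quasi-likelihood test (adjusted p under 0.05 over all genes). Over all 13849 genes tested, 15.3% were higher. Genes near 0 in control passed that filter through their p63KO counts, so the share among the 4 tested genes does not describe the 10. With no filter beyond 1 count in any library, 9 members could be tested and 4 were higher, Scg2 being the fourth, where 11.5% of 18572 genes were higher. Every p63KO library lay above every control library, in CPM, for 5 of the 10 genes (Cck, Calca, Sst, Scg2 and Ghrl), as it did for 18.4% of all genes with a count. In these bulk samples, more cells of a type and more RNA per cell cannot be told apart, nor can fewer cells and less RNA per cell.

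**Figure D1:**
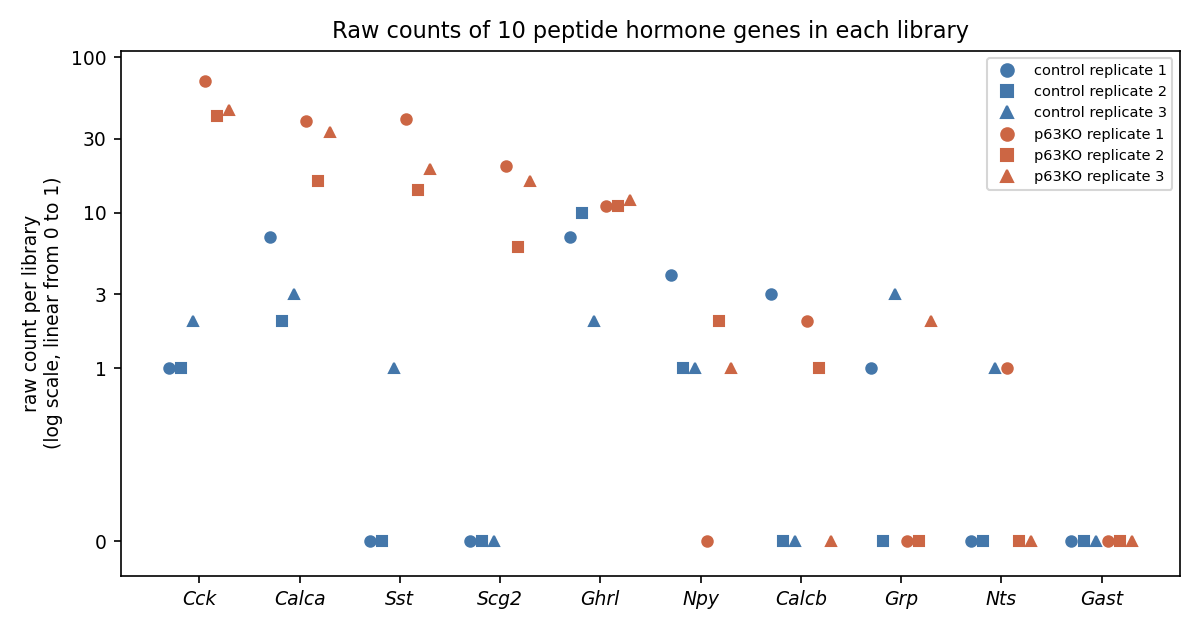
Raw counts of each hormone gene (vertical axis, log scale above 1) in the 3 control libraries (blue) and the 3 p63KO libraries (orange). Cck reached 70 counts and Sst 40 in p63KO replicate 1, whereas Gast was at 0 in all 6 libraries.

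Cck encodes cholecystokinin, the hormone of intestinal I cells that contracts the gallbladder and drives pancreatic enzyme secretion, and it is also a brain neuropeptide. It had 1, 1 and 2 counts in control replicates 1, 2 and 3 and 70, 42 and 46 counts in p63KO replicates 1, 2 and 3. All p63KO libraries were far above all control libraries. It rose from 0.0742 ± 0.0378 to 3.49 ± 0.614 CPM (SD, n = 3 each), with a log2 fold change of 5.45 (SE 0.43, edgeR adjusted p = 1.6e-05). The ratio of the depth-scaled group sums was 48.6, with an exact 95% interval of 18.6 to 180.6 that covers counting error only, as all such intervals here do.

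Sst encodes somatostatin, the D-cell peptide that inhibits the release of other hormones. It had 0, 0 and 1 count in control and 40, 14 and 19 counts in p63KO. The only control count came from control replicate 3, and no control library reached the lowest p63KO library. Sst rose from 0.0196 ± 0.0340 to 1.58 ± 0.711 CPM (edgeR adjusted p = 0.00051, log2 fold change 5.96 with an SE of 0.81). With 1 control count, the ratio of 89.8 had a 95% interval of 15.6 to 3596. Without control replicate 3 the control group was at 0, and the fitted value of 7.74 (adjusted p = 0.0011) is then no measure of size.

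Calca encodes 2 products by alternative splicing, calcitonin of thyroid C cells and the alpha form of calcitonin gene-related peptide (CGRP) of sensory neurons and pulmonary neuroendocrine cells. Counts per gene do not separate these products. Calca had 7, 2 and 3 counts in control and 39, 16 and 33 counts in p63KO. It was thus present in every control library, unlike Sst and Scg2, and the groups did not overlap. It rose from 0.218 ± 0.142 to 1.95 ± 0.736 CPM (edgeR adjusted p = 0.0019, log2 fold change 3.12 with an SE of 0.53). The ratio of sums was 9.02, with a 95% interval of 4.91 to 18.1. Without control replicate 1, the library with the most Calca counts in control, the log2 fold change was 3.76 (adjusted p = 0.0031).

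Scg2 encodes secretogranin II, a granin of dense-core granules and the precursor of secretoneurin. It had 0 counts in each control library and 20, 6 and 16 counts in p63KO. The 6 counts of p63KO replicate 2 kept it below the filter on low values, so the main test holds no value for it. Taking 3 counts over the control group as its upper limit, and the p63KO counts as exact, Scg2 was at least 17.2-fold higher in p63KO. The same floor gave 11.1-fold without control replicate 2, 11.4-fold without control replicate 1 and 11.9-fold without control replicate 3. Fewer control reads then stood behind it. With no filter its edgeR adjusted p was 0.0015, and with a minimum count of 3 it was 0.0032.

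Ghrl encodes ghrelin, the appetite hormone of gastric X/A-like cells. It had 7, 10 and 2 counts in control and 11, 11 and 12 counts in p63KO. Ghrl held 19 of the 50 counts of the 10 genes in control, more than any other member. Its counts were lowest in control replicate 3. The mean level was 0.335 ± 0.200 CPM in the control group against 0.767 ± 0.121 CPM in p63KO, a log2 fold change of 1.14 (SE 0.53) that did not pass (edgeR adjusted p = 0.14). The ratio of sums was 2.20, with a 95% interval of 1.22 to 4.09, so a difference of that size was not resolved against the spread between libraries. Without control replicate 3 the log2 fold change was 0.77 (adjusted p = 0.32). Mboat4, the acyltransferase that activates ghrelin, had 5, 3 and 6 counts in control and 8, 6 and 4 in p63KO, too few for the main test, and did not pass with no filter (edgeR adjusted p = 0.55, log2 fold change 0.62). Ghrl overlaps 2 opposite-strand gene models in GENCODE M21, which have no row in the count table, and the strand setting of the counting is not given.

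The remaining members were at or near 0 in both groups, and no direction can be read from them. Gast, the gene of gastrin, the acid-stimulating hormone of antral G cells, had 0 counts in all libraries. A count of 0 allows up to 0.0544 CPM over the control group and 0.0669 CPM over the p63KO group. Nts, the gene of neurotensin, a peptide of ileal N cells and neurons, had 1 count in control replicate 3 and 1 in p63KO replicate 1. Grp encodes gastrin-releasing peptide, the bombesin-like peptide of nerves and airway neuroendocrine cells. It had 1, 0 and 3 counts in control and 0, 0 and 2 in p63KO, a ratio of 0.615 with a 95% interval of 0.0556 to 4.29. Npy, the gene of neuropeptide Y of sympathetic and central neurons, had 4, 1 and 1 counts in control and 0, 2 and 1 in p63KO, a ratio of 0.615 (95% interval 0.0995 to 2.88). Calcb encodes the beta form of CGRP, common in enteric neurons. It had 3, 0 and 0 counts in control and 2, 1 and 0 in p63KO, a ratio of 1.23 with a 95% interval of 0.165 to 9.19 that includes the ratio of its paralog Calca. The 2 genes are similar in sequence, and how reads shared by both were counted is not given. With no filter, the edgeR adjusted p of Calcb, Grp, Npy and Nts lay between 0.77 and 0.95.

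Per kilobase of merged exon in GENCODE M21, Cck had the highest level of the 10 genes in p63KO, at 2.67 ± 0.471 CPM per kb. Sst followed at 2.19 ± 0.986, Calca at 1.16 ± 0.437, Ghrl at 0.711 ± 0.112 and Scg2 at 0.369 ± 0.176 CPM per kb. The ranges over the p63KO libraries overlapped between Cck and Sst, between Sst and Calca and between Calca and Ghrl, whereas those of Ghrl and Scg2 did not. Within each p63KO library, Sst lay above Calca. In control the highest mean level was that of Ghrl, at 0.310 ± 0.185 CPM per kb, but Npy lay above it in control replicate 1 and Grp in control replicate 3. The 10 genes together had 23, 14 and 13 counts in the control libraries and 183, 92 and 129 in p63KO. Cck, Calca, Sst and Scg2 made up 361 of the 404 hormone counts in p63KO.

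The p63KO libraries also differed among themselves. Cck, Calca, Sst and Scg2 were each lowest in p63KO replicate 2, where Sst was 0.970 CPM against 2.36 and 1.41 CPM, and Scg2 was 0.416 CPM against 1.18 and 1.19 CPM. Ghrl did not share this order and was lowest in p63KO replicate 1. Of the 18 granule and processing genes that rose (described next), 17 were lowest in p63KO replicate 2, as were 47.7% of all genes that rose. Of the 13 proendocrine factor genes that rose, 9 (69.2%) were lowest there too; Neurog3, which had its highest count, 637, in that library, was among the other 4. This order was noticed after the values were seen and was not tested.

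**Figure D2:**
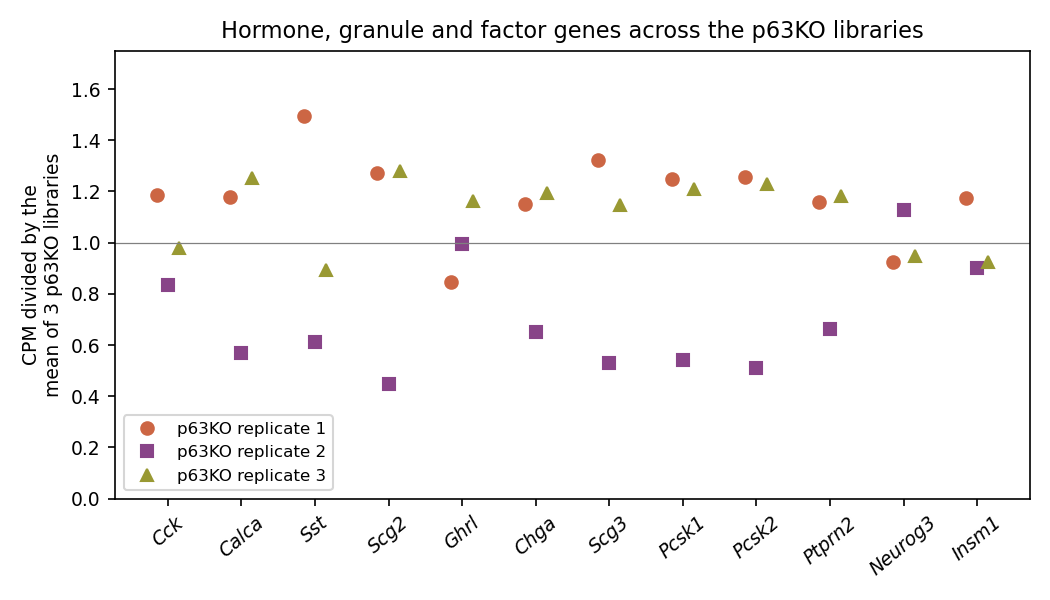
CPM of 12 genes in each p63KO library, divided by the mean of the 3 p63KO libraries (vertical axis, 1 is the mean). Cck, Calca, Sst, Scg2 and the granule genes Chga, Scg3, Pcsk1, Pcsk2 and Ptprn2 were lowest in p63KO replicate 2 (purple squares), as was the proendocrine factor gene Insm1, while Ghrl and Neurog3 were not.

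Genes of precursor processing, of the dense-core granule and of its release, taken as 1 list, were mostly higher in p63KO. Of 24 listed processing and granule genes, 22 were tested, 18 rose and 4 did not pass, with a median log2 fold change of 3.61 against -0.01 over all tested genes. Pcsk1 and Pcsk2 encode the prohormone convertases, and their counts over the group were 3 and 3 in control and 453 and 325 in p63KO. The depth-scaled ratios were 185.8 for Pcsk1 (95% interval 63.2 to 904.3) and 133.3 for Pcsk2 (95% interval 45.2 to 649.7). Scg5, the chaperone of Pcsk2, rose from 0.568 ± 0.126 to 23.6 ± 3.57 CPM. Ptprn2, a phosphatase-like membrane protein of the granule, rose from 0.334 ± 0.172 to 46.0 ± 13.5 CPM, and Cadps, which primes granules for release, from 1.15 ± 0.111 to 18.7 ± 4.96 CPM. Pam, which amidates the ends of peptides such as CCK and CGRP, was abundant in both groups and rose by 0.25 on the log2 scale (SE 0.07, edgeR adjusted p = 0.033). That call was lost without control replicate 2 (adjusted p = 0.098), control replicate 3 (0.092) or p63KO replicate 3 (0.12). Many of these genes, like the hormones, were near 0 in control and entered the test through their p63KO counts. With no filter, 18 of 24 were higher, where 11.5% of all genes were higher.

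**Figure D3:**
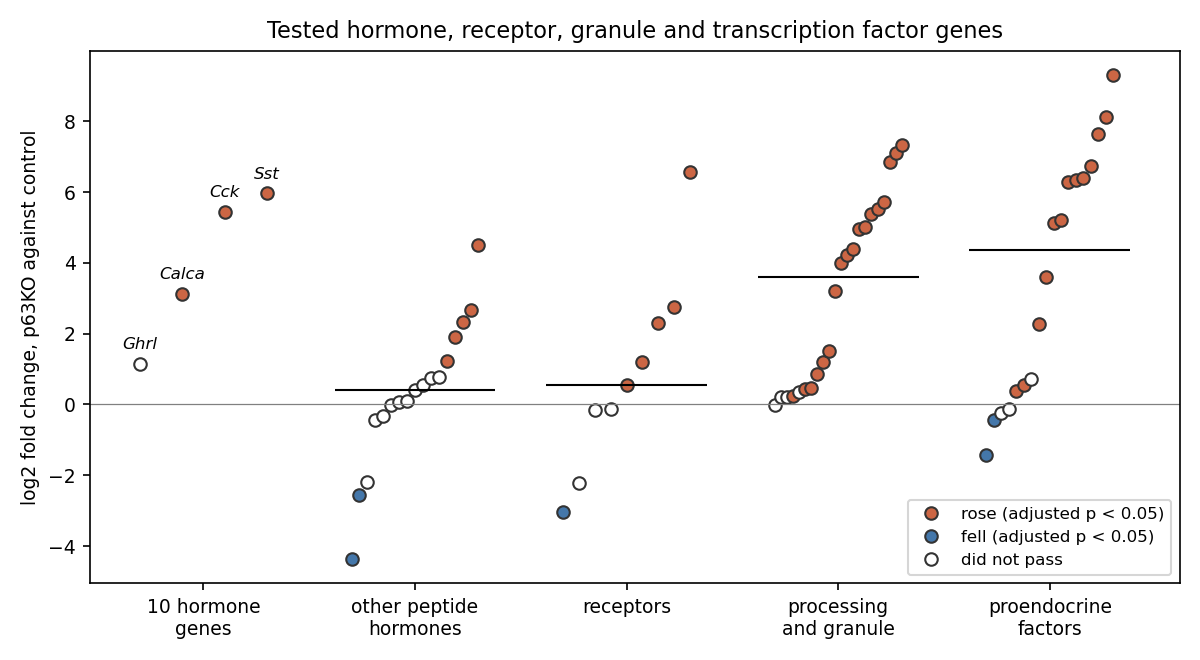
Log2 fold change of p63KO against control (vertical axis) for the tested genes of 5 lists, with 1 point per gene, orange where it rose, blue where it fell and white where it did not pass; black lines are the medians of the 4 lists other than the hormones. The tested hormone genes lay between 1.14 (Ghrl) and 5.96 (Sst).

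Receptors of these hormones were measured beside them. Of 23 listed receptor genes, 9 were tested, 5 rose, 1 fell and 3 did not pass, with a median log2 fold change of 0.54. Over all genes tested, 15.3% were higher and 14.3% lower. Sstr2 and Sstr3 were low in control and passed the filter through their p63KO counts, so that share does not describe the list. With no filter, 6 of 21 were higher and 1 lower, where 11.5% of all genes were higher. Among somatostatin receptors, Sstr3 had 0, 0 and 2 counts in control and 56, 63 and 66 in p63KO, a ratio of 113.8 (95% interval 31.1 to 946.8). Sstr2 rose from 0.165 ± 0.0972 to 1.14 ± 0.184 CPM (2.75 on the log2 scale, SE 0.52), while Sstr1, Sstr4 and Sstr5 had 23 or fewer counts over each group and were not tested.

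Both cholecystokinin receptor genes rose. Cckar, whose receptor prefers sulfated cholecystokinin, had 178, 258 and 147 counts in control and 413, 407 and 267 in p63KO (edgeR adjusted p = 0.0011, log2 fold change 1.20 with an SE of 0.19). Cckbr, whose receptor also binds gastrin, had 93, 21 and 37 counts in control and 247, 145 and 215 in p63KO (adjusted p = 0.0043, 2.30 with an SE of 0.45). These receptor genes had 21 or more counts in each control library, where Cck had 1, 1 and 2.

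The CGRP receptor is made of Calcrl and its partner Ramp1. Calcrl, which is also the adrenomedullin receptor of vessels, fell from 6.39 ± 1.34 to 0.774 ± 0.533 CPM (edgeR adjusted p = 0.00058, log2 fold change -3.05 with an SE of 0.43). Ramp1 had 2, 3 and 1 counts in control and 8, 5 and 15 in p63KO, too few for the main test, and its adjusted p was 0.031 with no filter. Calcr, the calcitonin receptor gene, had 2, 2 and 6 counts in control and 8, 3 and 9 in p63KO, and did not pass with no filter (edgeR adjusted p = 0.29, log2 fold change 1.25). Ramp2, the adrenomedullin partner of Calcrl, had 71 counts in control replicate 3 and 13 or fewer in each other library, and did not pass (log2 fold change -2.21, SE 0.89, adjusted p = 0.099); without control replicate 2 it was called lower (0.035). Sort1, a sorting receptor that binds neurotensin, was 212.0 ± 6.04 CPM in control and rose by 0.54 on the log2 scale (SE 0.05). Ghsr, the ghrelin receptor gene, and the neurotensin receptor gene Ntsr1 had 2 counts each, all of them in control replicate 3, and no count elsewhere.

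**Figure D4:**
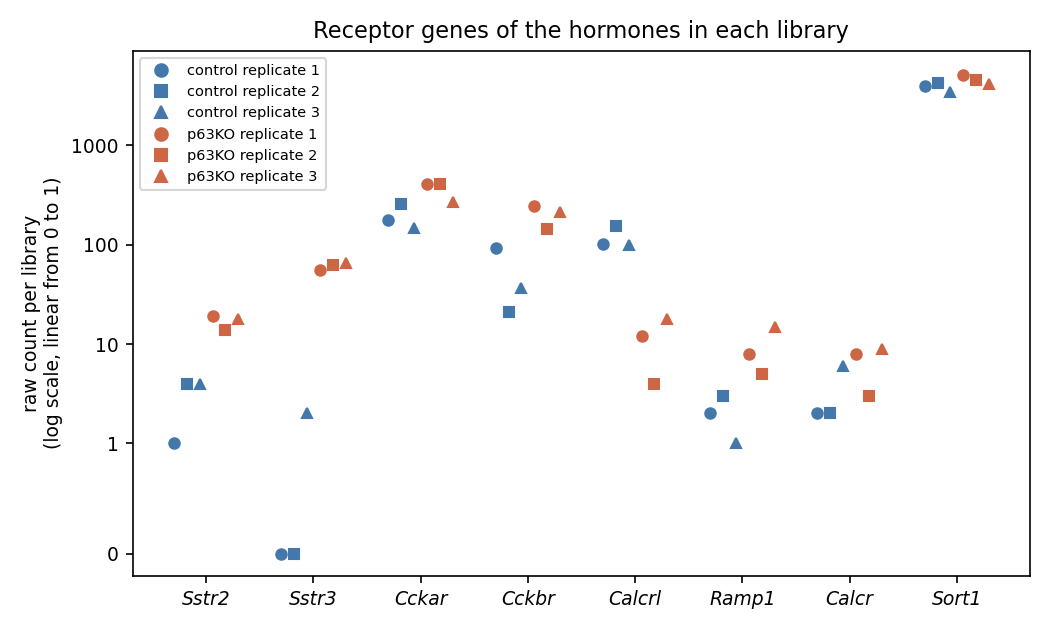
Raw counts of 8 receptor genes (vertical axis, log scale above 1) in each library, control in blue and p63KO in orange. Sstr2, Sstr3, Cckar and Cckbr lay higher and Calcrl lower in every p63KO library, while the counts of Calcr overlapped between the groups.

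Other peptide hormone genes moved in both directions. Of 66 listed genes with a row, 17 were tested, 5 rose, 2 fell and 10 did not pass, with a median log2 fold change of 0.40. The share that fell was close to that over all genes, and the share that rose was 5 of 17 against 15.3%. The 5 that rose were Iapp, Sct, Npb, Edn1 and Vgf. All of these but Edn1 passed the filter through their p63KO counts, so that share does not describe the list. Iapp, the gene of amylin, a relative of CGRP, had 2, 0 and 0 counts in control and 19, 10 and 15 in p63KO, a ratio of 27.1 (95% interval 7.06 to 230.5). Sct, the gene of secretin, had 1, 6 and 9 counts in control and 34, 28 and 23 in p63KO (2.66 on the log2 scale, SE 0.53). Vgf, a granin-like precursor, had a log2 fold change of 2.32, Edn1, the gene of endothelin, one of 1.23, and Npb, a neuropeptide gene, one of 1.91, which did not pass without p63KO replicate 1 (edgeR adjusted p = 0.0503). Penk, the enkephalin precursor, and Ucn2, a urocortin, fell by 2.56 and 4.37 on the log2 scale. Nucb2, the most abundant gene of the list, was at 0.09 (SE 0.12, adjusted p = 0.64).

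With no filter, 8 of the 49 other hormone genes that could be tested were higher, against 11.5% of all genes. The added genes were Gcg, Pyy and Nmu, named here after their values were seen. Gcg, the precursor of glucagon and GLP-1, had 0 counts in control and 4, 4 and 6 in p63KO. This was 5.74-fold higher against the floor, with the p63KO counts taken as exact (edgeR adjusted p = 0.018 with no filter). Pyy, the gene of peptide YY of intestinal L cells, had 1, 1 and 0 counts in control and 6, 10 and 20 in p63KO, a ratio of 22.1 (95% interval 5.70 to 189.9). Nmu, the gene of neuromedin U, had 0 counts in control and 4, 1 and 7 in p63KO. Ins1, Ins2, Gip, Ppy and Vip were at 0 counts in all 6 libraries.

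Of 24 listed proendocrine transcription factors, 18 were tested, 13 rose, 2 fell and 3 did not pass, with a median log2 fold change of 4.37. Over all genes tested, 15.3% were higher and 14.3% lower. Several of the factors, such as Neurog3 and Neurod1, were near 0 in control and passed the filter through their p63KO counts. The share and median of the tested factors therefore do not describe the list. With no filter, 14 of 24 were higher and 2 lower, where 11.5% of all genes were higher. Insm1 had 19, 10 and 17 counts in control and 3363, 2195 and 2099 in p63KO. Neurog3 had 2, 0 and 1 counts in control and 614, 637 and 501 in p63KO, and Myt1 rose from 0.402 ± 0.193 to 33.0 ± 3.84 CPM. Sox4, the most abundant of the list, rose by 0.39 on the log2 scale (SE 0.10), a call lost without p63KO replicate 1 (edgeR adjusted p = 0.055).

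Markers of other cells that make these hormones were read in the same libraries, and their part in the hormone values was not tested. The counts of genes called in each marker list stand beside 15.3% higher and 14.3% lower over all genes tested. For enteric neurons and neural crest, 18 of 24 listed genes were tested, 6 rose and 3 fell, and the summed level was 286.5 to 343.8 CPM in control and 637.0 to 707.9 CPM in p63KO. The median log2 fold change of the list was -0.29. Without Uchl1, Ret and Tubb3, which all rose, the sum was 224.1 to 274.8 CPM in control and 241.3 to 262.5 CPM in p63KO. That remainder was not unchanged, because it held both genes that rose (Elavl3, Elavl4 and Stmn2) and genes that fell (Th, Gfra1 and Ednrb). The mean of Elavl4 went from 3.66 CPM in control to 30.2 CPM in p63KO, and that of Th from 56.9 to 0.497 CPM. Elavl3, Ret, Tubb3, Elavl4, Stmn2 and Uchl1 rose, and which cells their RNA came from was not tested. The genes that fell were Th, Gfra1 and Ednrb, and Erbb3, the most abundant, was at 0.03. Sox10, of crest and glia, had 50, 35 and 90 counts in control against 26, 26 and 6 in p63KO, and did not pass. The acetylcholine synthesis gene Chat was at 0 counts in control and 3 in p63KO.

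For thyroid and C cells, a source of Calca, the summed level was 52.1 to 72.7 CPM in control and 9.91 to 15 CPM in p63KO. Nearly all of it was Foxe1, which is also on the list of esophageal epithelium genes: the other 6 genes summed to 1.63 to 3.28 CPM in control and 2.07 to 3.05 CPM in p63KO. Of 7 genes, 3 were tested: Foxe1 fell, Slc5a5 rose and Tg did not pass. The Slc5a5 call was lost when control replicate 2, p63KO replicate 2 or p63KO replicate 3 was left out, and without control replicate 3 Tg was called lower (edgeR adjusted p = 0.046). Pax8 had 1 count in control and 0 in p63KO.

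For glandular stomach, a source of Ghrl and Gast, the summed level was 3.01 and 3.71 CPM in control replicates 2 and 1, 77.0 CPM in control replicate 3 and 21.9 to 27.5 CPM in p63KO. A single gene made most of each high value: Gata4 was 69.9 CPM in control replicate 3, and Muc5ac went from 0.845 ± 0.187 CPM in control to 18.3 ± 1.44 CPM in p63KO. Without both, the sum was 2.15 to 6.42 CPM in control and 4.23 to 7.32 CPM in p63KO. Of 17 genes 4 were tested. The mucin gene Muc5ac and the proton pump gene Atp4a rose, the latter call being lost when control replicate 1, control replicate 2, p63KO replicate 1 or p63KO replicate 2 was left out, and Muc6 and Barx1 did not pass. Gkn1 and Tff1 were at 0 counts in all libraries. For intestine, pancreas and liver the sum was 44.5 and 45.7 CPM in control replicates 2 and 1, 396.2 CPM in control replicate 3 and 43.3 to 52.1 CPM in p63KO. Of 23 genes 5 were tested and none passed in edgeR or DESeq2 (0 higher and 3 lower at unadjusted p under 0.05). Hnf4a and Gata6 had their highest counts, 826 and 243, in control replicate 3. Without control replicate 3, 2 of the list rose, while without control replicate 1 or 2, 1 and 2 of them fell. Control replicate 3, the library with these gut genes, held no Gast or Scg2 count, 1 Sst count, 2 Cck counts and 2 Ghrl counts.

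**Figure D5:**
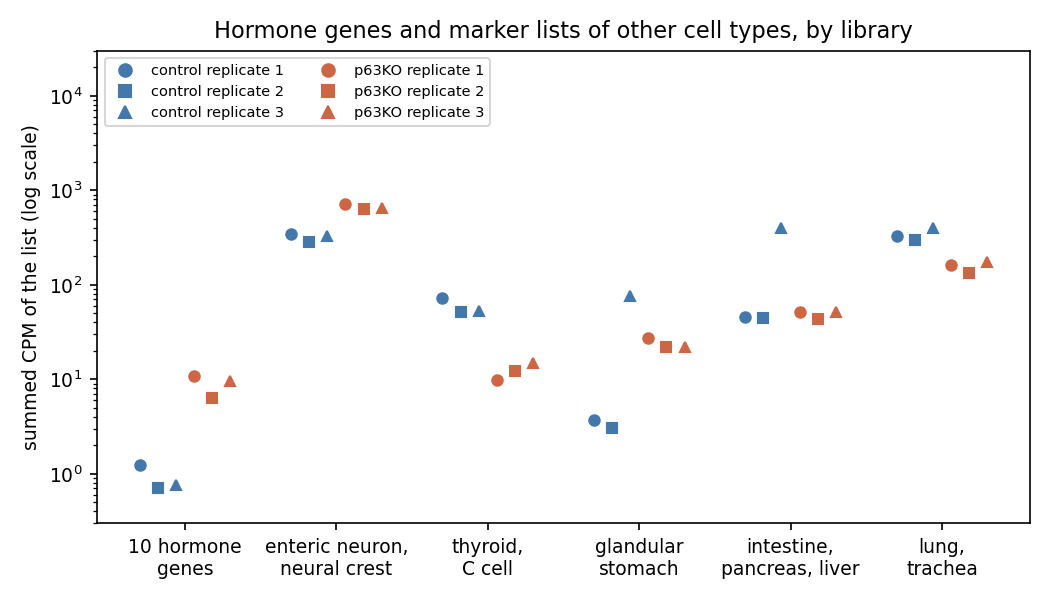
Summed CPM (vertical axis, log scale) of the 10 hormone genes and of 5 marker lists in each library, control in blue and p63KO in orange. The hormone sum was 0.72 to 1.24 CPM in control and 6.37 to 10.8 CPM in p63KO, and control replicate 3 (blue triangle) stood above the other libraries in the stomach and intestine lists.

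For lung and trachea, 13 genes were listed and 5 tested, and Sox9 fell; without control replicate 2, 3 fell. The summed level was 299.0 to 401.9 CPM in control and 133.1 to 174.4 CPM in p63KO. Most of this fall was Sox9, which went from 190.0 ± 18.5 to 39.6 ± 2.88 CPM. Foxj1 and Etv4 did not pass. Nkx2-1 was near 0 in both groups, at 0.420 ± 0.104 CPM in control and 0.557 ± 0.310 CPM in p63KO. Scgb1a1 was at 0 counts in all libraries. Of 15 tested mesenchyme genes, 7 fell and 2 rose, the latter being Twist1 and Dcn, the most abundant. Over all genes tested, 14.3% fell and 15.3% rose. Acta2, of smooth muscle, fell by 1.29 on the log2 scale. The number that fell was 2 without control replicate 1 and 3 without p63KO replicate 3. The summed mesenchyme level was 648.0 to 851.6 CPM in control and 1445 to 1828 CPM in p63KO. Without Dcn, which went from 159.0 to 1222 CPM, the sum of the other 15 genes was 436.9 to 699.3 CPM in control and 317.8 to 485.6 CPM in p63KO, and the median log2 fold change of the tested genes, Dcn included, was -0.90. Of 16 esophageal epithelium genes, 7 fell and 4 rose, led by Trp63, Krt7 and Foxe1, against the same 14.3% and 15.3% over all genes. Epcam, with the highest mean over the 6 libraries, was at 0.15 (SE 0.05, edgeR adjusted p = 0.057). Epcam was called higher in 4 of 13 alternatives, with DESeq2 (adjusted p = 0.0091), RLE scaling (0.049), library totals (0.020) and the replicate block (0.040).

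The genes whose log2 CPM followed each tested hormone most closely over the 6 libraries are given as a description, because between 251 and 1556 genes had a Pearson r above 0.9 with each of them. For Cck they were Ano7, Trim67 and Mtmr1 (each r above 0.999). For Sst they were Actg1, Shc1 and Stx1a (each r above 0.999), and for Calca they were Epb4.1l4b, Col4a4 and Pitpna (r = 0.997, 0.997 and 0.996). For Ghrl they were Psd3, Tmem198 and Wwc2 (r = 0.988, 0.985 and 0.985), whose lowest values were, like that of Ghrl, in control replicate 3.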

How the data were processed

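The authors deposited raw read counts, not normalized, with 1 row per gene symbol and 6 columns that were tied to samples by the names in the sample descriptions. TopHat2 2.1.0, bcl2fastq 1.8.4, DESeq2 and build mm9 are listed, per the submitters' processing notes. No counter, annotation or strand setting is named there. Per the labels' protocols, reads were 100 bases long.

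Counts were fitted with edgeR 4.0.16 in R 4.3.3, with filterByExpr (minimum count 10, minimum total count 15), TMM scaling and a quasi-likelihood test of group alone. Benjamini-Hochberg adjustment ran over all 13849 genes tested, with 0.05 as the threshold. Standard errors (SE) were derived from the F statistic. Ratios are of group sums over effective library sizes, with exact 95% intervals and a floor of 3 counts over a group. Correlations used log2(CPM + 0.5). Alternatives were DESeq2 1.42.0, 2 other scalings, 2 other filters, a block on the replicate number, leaving out each library, and a threshold of 0.01.

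Named genes were the 10 members, Trp63, the 3 lowest p and the most abundant gene of each list, changed receptors, the 3 most correlated genes of each tested member, and genes that set control replicate 3 apart; others were chosen after their values were seen. The members and lists were chosen with earlier results of these data known. Genes left out of list sums were chosen after the values were seen. Promoters are on GRCm38.p6 and were used for sequence only; Calcb is named without one. A few single genes that this rule selects are not reported here, and list counts and sums include them.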

Additional observations from a re-analysis of the deposited data

How the results depend on the processing

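The directions and calls of Cck, Sst, Calca and Ghrl were kept under all 13 alternatives. Log2 fold changes ranged from 5.24 to 5.87 for Cck, from 5.48 to 7.74 for Sst, from 2.77 to 3.76 for Calca and from 0.77 to 1.57 for Ghrl, with adjusted p up to 0.00024, 0.0038 and 0.012 for the first 3 and from 0.11 to 0.32 for Ghrl. The number of hormone genes called was 3 or 4, the fourth being Scg2. With 1 library left out, the ratio of Scg2 against the floor ranged from 11.1 to 21.8. At an adjusted p under 0.01, 2580 genes changed in place of 4098. With no filter, 8 other peptide hormone genes were higher in place of 5. With DESeq2, 2 receptor genes were lower in place of 1, and with 1 library left out the number was 1 to 2. Erbb3, not called in any fit, ranged on the log2 scale from -0.043 without p63KO replicate 2 to 0.10 without p63KO replicate 1.

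With the replicate number as a block, 4778 genes changed and the hormone calls stayed at 3, with adjusted p of 0.00012 for Cck, 0.0012 for Sst, 0.0016 for Calca and 0.16 for Ghrl. Same-numbered libraries had correlations of deviations of 0.202, 0.273 and 0.0488, so the numbers were not taken as pairs, although each library correlated best with its own number. The depth limits the low members: 3 counts in a library correspond to 0.149 to 0.225 CPM.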
